A study of Mus musculus with 2 samples.

Results

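The genes that carry out the uptake of lipoprotein lipid and fatty acids were followed through a genome-wide map of LSD1 in mouse brown adipocytes. The 9 genes, taken from 21853 protein-coding genes with a protein-coding transcript in GENCODE M21, were Lpl, Gpihbp1, Angptl4, Vldlr, Lrp1, Cd36, Slc27a1, Acsl1 and Fabp5. They were chosen by name for their function. Every LSD1 peak within 1 kb of one of their protein-coding transcript starts (a promoter peak) or from 10 kb upstream of the gene record to its end was taken, which gave 41 of the 59175 peaks of the list. The tested library was an LSD1 immunoprecipitate, made with an antibody raised in the submitters' laboratory, and the control library was input DNA without antibody. Both came from differentiated primary brown adipocytes of the C57BL/6 N strain, with the genotype given as control, after 2 to 3 passages. The cells of both libraries had been differentiated with insulin (850 nM), dexamethasone (1 µM), rosiglitazone (1 µM), indomethacin (125 nM), T3 (1 nM) and isobutylmethylxanthine (500 µM) and were fixed for 5 min on day 10, and the growth medium held 20% fetal bovine serum. Rosiglitazone activates the nuclear receptor PPARγ and dexamethasone the glucocorticoid receptor. The cells thus model adipocytes differentiated with these agents in culture, without the capillaries of the tissue.

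There was 1 library of each kind, and the processed data were 1 peak list with a position and a score per peak. No difference could therefore be set against a spread between replicates, and no test was made. The score is the authors' own value, and neither the labels nor the file state its scale. Its use here was to order peaks of the 1 list against each other, where it had a median of 111 (quartiles 86.7 and 193). The list holds no read counts, so the depth is unknown, and it holds no expression, so the labelled cell type could not be checked against its markers. Promoter peaks lay at 6 of 8 brown adipocyte marker genes and at 2 of 10 endothelial ones, against 55.8% of all protein-coding genes. The highest promoter scores of the 6 had a median of 107 (76.0 to 401), below the list median. Those of the 2 endothelial ones had a median of 185 (178 to 193), and those of all bound protein-coding genes 315. No cell type was read from these counts, and 8 of the 10 endothelial markers stood in CpG deciles 2 to 4, where 8.05% to 33.8% of genes were bound. The brown adipocyte markers Adipoq, Fabp4, Plin1, Ucp1 and Dio2 stood in these deciles too. Of these, Ucp1 and Dio2 had no peak at the promoter or from 10 kb upstream to the gene end.

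Brown adipocytes take up much of their fuel from triglyceride-rich lipoproteins in the blood. Lipoprotein lipase is secreted by the adipocyte, carried to the capillary wall by GPIHBP1 and held in check there and in the cell by ANGPTL4. The fatty acids that it frees enter the cell with the help of CD36 and FATP1 (Slc27a1), are trapped as acyl-CoA by ACSL1 and travel on binding proteins such as FABP5, while VLDLR and LRP1 take up lipoprotein particles. Lysine-specific demethylase 1, LSD1, removes methyl groups from histone lysines in complexes with CoREST and histone deacetylases, and has been studied as a regulator of gene programmes in brown fat.

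LSD1 lay at the promoters of 7 of the 9 uptake genes (77.8%), against 55.8% of all protein-coding genes. The exceptions were Cd36 and Gpihbp1. A peak anywhere from 10 kb upstream to the gene end was present at 8 of 9 (88.9%), against 69.8% of all genes, and Cd36 alone had none. The highest promoter score of a gene reached the top 10% of all peaks (a score of 391) at 6 of 9 genes, against 22.8% of all genes. In descending order these highest scores were 1408 at Fabp5, 1177 at Acsl1, 1004 at Vldlr, 766 at Lrp1, 640 at Slc27a1, 467 at Lpl and 337 at Angptl4. With a single library, neighbours in this order cannot be told apart.

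**Figure D1:**
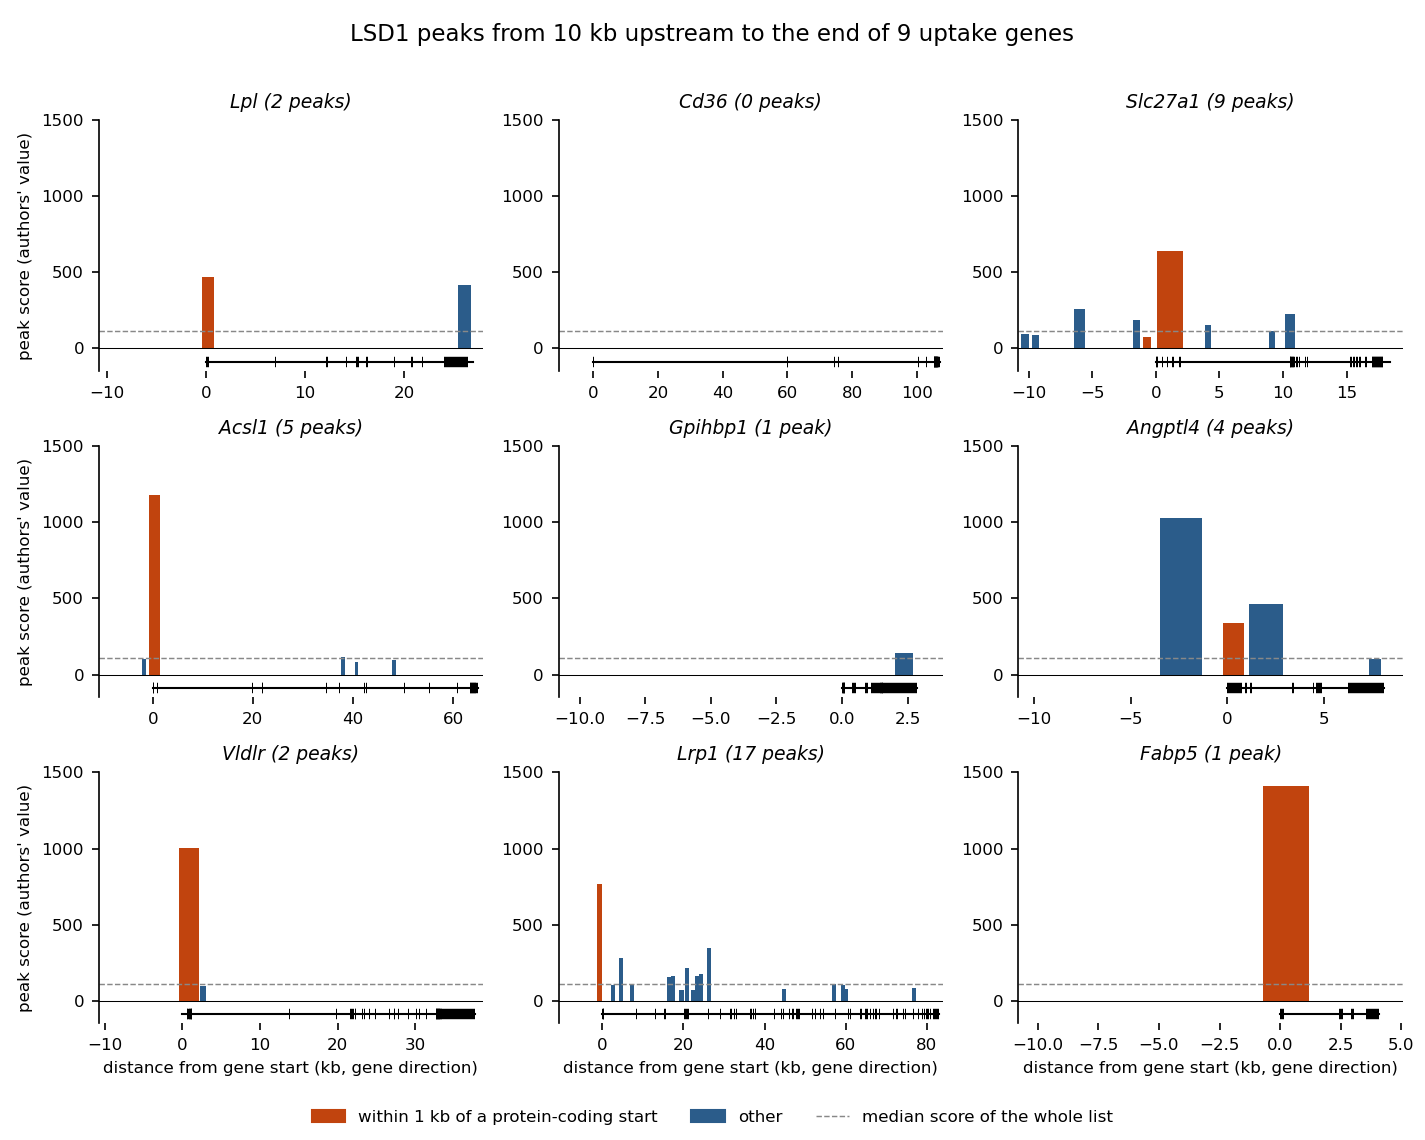
LSD1 peaks at each of the 9 uptake genes, with the distance from the gene start in kb on the horizontal axis and the authors' peak score on the vertical axis. Orange bars are promoter peaks and blue bars other peaks (bars narrower than 1.2% of the gene are drawn at that width), and the black track shows exons of the protein-coding transcripts. Cd36 is empty, Lrp1 holds 17 peaks, and the tallest Angptl4 bar stands upstream of its promoter peak.

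Lpl, which encodes lipoprotein lipase (chr8:68880491-68907448, plus strand), carried 2 peaks of similar size at its opposite ends. The promoter peak at chr8:68880138-68881333 was 1196 bp wide with a score of 467 and covered the start and the first exon. Its midpoint lay 245 bp downstream of the start. The other peak, at chr8:68905925-68907227, was 1303 bp wide with a score of 415, and its midpoint fell in the untranslated part of exon 10, the last of 10. The 2 peaks differed in base composition. The promoter peak had 54.8% GC and 52 CpG dinucleotides, while the peak at the 3′ end had 35.5% GC and 7 CpGs.

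Gpihbp1 encodes the endothelial protein that anchors the lipase to the capillary wall (chr15:75596628-75599481, plus strand). None of its 3 starts had a peak within 1 kb, and the nearest peak began 2012 bp downstream of the last of these starts. That single peak, at chr15:75598666-75599321, was 656 bp wide with a score of 144, above 65.4% of the list by rank. Its midpoint fell in an exon of 1 annotated transcript, downstream of the end of the transcript with the longest coding sequence. Gpihbp1 is made by endothelial cells, and these cultures are labelled as adipocytes. Whether this bears on the peaks of the gene was not tested.

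Angptl4 encodes a secreted inhibitor of lipoprotein lipase that fasting, glucocorticoids and PPAR ligands induce (chr17:33773750-33781830, minus strand). Its strongest peak was not at the promoter. The peak at chr17:33783113-33785301 was 2189 bp wide with a score of 1027 and had its midpoint 2377 bp upstream of the start, over the long noncoding RNA gene 4931413I07Rik. The promoter peak at chr17:33780975-33782024 was 1050 bp wide and scored 337. A further peak at chr17:33778943-33780727, with its midpoint in intron 3, was 1785 bp wide and scored 466. The last, at chr17:33773885-33774522 in the untranslated part of exon 7, scored 101. Angptl4 was the only 1 of the 7 promoter-bound uptake genes whose highest score in the window lay outside the promoter. Among all promoter-bound genes 19.6% shared this feature.

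The upstream Angptl4 peak was poor in CpG, with 7 CpGs in its 2189 bp (observed over expected ratio 0.0632), against 54 CpGs and a ratio of 0.616 at the promoter peak. Repeat sequence, as masked in the assembly, made up 36.3% of it, and 6.21% of its 32-base words occurred more than once in the assembled chromosomes. Whether reads of repeat origin contribute to this score was not tested. Its central 300 bases are shown because this is the highest-scoring peak of the uptake genes outside a promoter. They run along the plus strand of GRCm38.p6 at chr17:33784057-33784356, and capitals mark a TGACTCA site of AP-1, the nuclear receptor hexamer AGGTCA on the minus strand (printed as TGACCT) and a TATAAA match.
Angptl4 upstream peak, centre: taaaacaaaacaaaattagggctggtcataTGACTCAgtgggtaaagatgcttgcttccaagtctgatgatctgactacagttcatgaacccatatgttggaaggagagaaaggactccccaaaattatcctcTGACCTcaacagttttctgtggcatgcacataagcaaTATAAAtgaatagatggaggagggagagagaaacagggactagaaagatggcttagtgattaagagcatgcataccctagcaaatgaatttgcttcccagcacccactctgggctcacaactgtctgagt

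Of the receptors, Vldlr was bound at its promoter and little elsewhere, and Lrp1 held most of its peaks outside the promoter. Vldlr, the very low density lipoprotein receptor (chr19:27216484-27254231, plus strand), had the widest peak of all 9 genes. At chr19:27216092-27218633 it measured 2542 bp, scored 1004 and covered both starts at the 5′ end of the gene. A narrow neighbour in intron 1, at chr19:27218744-27219514, scored 96.9. The third start, at position 27238774, had no peak within 1 kb, and the nearest one ended 19260 bp away.

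Lrp1, a large endocytic receptor for remnant lipoproteins and many other ligands (chr10:127538161-127621148, minus strand), held 17 peaks. The median number in the length decile of Lrp1 was 3, and 170 genes (0.778% of all) had 17 or more. Its promoter peak at chr10:127621144-127622419 was 1276 bp wide with a score of 766. It was centred 634 bp upstream of the start and reached only 5 bases into the gene. Among 938 bound genes whose best promoter peak had a like width (within 5%), a median score of 485 was found, and the score of Lrp1 lay at percentile 86.0. The other 16 peaks had midpoints in introns of the transcript with the longest coding sequence, 7 of them above the median score of the list. A start at position 127583460, that of a short transcript, was unbound, with the nearest peak 6867 bp away. The highest of these were in intron 8 at chr10:127594433-127595076 (score 346), in intron 1 at chr10:127616030-127616984 (score 281) and in intron 6 at chr10:127599660-127600690 (score 215). The midpoint of the last of these also lies in an exon of 1 other transcript. The remaining 13 scored between 70.1 and 174. Together the 16 peaks covered 13.4% of the gene.

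Many of the intron peaks of Lrp1 stood together. Intron 6 held 7 of the 16, and with the intron 8 peak they formed a run of 8 peaks between positions 127594433 and 127605202, with scores from 70.1 to 346 (median 161). The run spanned 10770 bp, and peaks covered 54.2% of it. Of the 59028 runs of 8 consecutive peaks in the list, this was the shortest, the next measuring 10863 bp and the median 156402.5 bp. The 67.8% of the gene on the 3′ side of the run held 5 peaks with scores from 76.0 to 107, all below the median of the list. The limits of the run were set after the data were seen. The tightest run of 7 peaks in Lrp1 ranked 2 of 59049, that of 6 peaks 18 of 59070 and that of 9 peaks 156 of 59007. By covered bases rather than by number of peaks, 174 of 59175 windows of this length that start at a peak (0.294%) were covered as much as this run.

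The intron 8 peak of Lrp1 was narrow for its score. At 644 bp wide it stood at percentile 99.8 of score among all peaks within 5% of its width, and it held no repeat letters and no 32-base word found elsewhere. Its central 300 bases, on the plus strand of GRCm38.p6 at chr10:127594605-127594904, contained 1 of the 10 motifs searched, GGAAGT of ETS factors, given in capitals.
Lrp1 intron 8 peak, centre: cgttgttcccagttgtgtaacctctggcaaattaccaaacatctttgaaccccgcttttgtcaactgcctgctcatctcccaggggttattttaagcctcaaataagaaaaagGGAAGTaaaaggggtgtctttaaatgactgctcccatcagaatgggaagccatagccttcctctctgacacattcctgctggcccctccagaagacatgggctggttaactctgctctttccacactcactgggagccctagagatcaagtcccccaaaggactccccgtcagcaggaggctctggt

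The 2 fatty acid transporters were opposite cases. Cd36, the main fatty acid translocase of adipocytes and muscle (chr5:17781690-17888801, minus strand), had no LSD1 peak at any of its 6 protein-coding starts, in its 107112 bp or in the 10 kb upstream. The closest peak beyond the gene lay 4744 bp past its 3′ end, at chr5:17776355-17776946, with a score of 146. On the upstream side the closest was at chr5:17928522-17929165, 39721 bp away, with a score of 111. Of the genes in the length decile of Cd36, 11.6% had no peak in the same window, and of those in its CpG decile 56.2%.

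Slc27a1, encoding the insulin-responsive fatty acid transport protein FATP1 (chr8:71568882-71587302, plus strand), had 9 peaks in its window. The gene ranked at percentile 99.6 for this number in its length decile. Its main promoter peak at chr8:71568998-71570982 was 1985 bp wide, scored 640 and extended over all but the first 2 of its 4 starts, which lay 116 and 71 bp outside. A second promoter peak upstream, at chr8:71567884-71568482, scored 75.5. Of the 7 others, the highest were at chr8:71562477-71563327 (score 259), at chr8:71579021-71579796 over coding exon 3 (score 229) and at chr8:71567096-71567642 (score 189), and the rest scored between 85.9 and 151. The window reaches into neighbours. Of the 9 peaks 4 were nearer to a start of Tmem221 or Nxnl1 than to one of Slc27a1, and 5 were nearest to Slc27a1 itself. The peak scoring 259 lay over Nxnl1, and that scoring 189 had its midpoint 768 bp upstream of an Nxnl1 start. Peaks scoring 95.4 and 85.9 lay within 1 kb of a Tmem221 start. The percentile of 99.6 counts all 9 peaks. Tmem221 encodes a transmembrane protein and Nxnl1 a thioredoxin-like factor of photoreceptors.

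Acsl1, the long-chain acyl-CoA synthetase that supplies acyl-CoA for oxidation in brown fat (chr8:46471037-46536051, plus strand), was bound at 1 of its alternative promoters. The peak at chr8:46470280-46472461 was 2182 bp wide with a score of 1177 and covered the 3 starts at the 5′ end. These had CpG ratios from 0.778 to 0.820 in the surrounding 1 kb. The other 4 starts, at positions 46490966, 46490974, 46492832 and 46531064, had ratios from 0.156 to 0.332 and lay 11634 to 17801 bp from the nearest peak. The remaining peaks were low. One at chr8:46468969-46469597, with the midpoint 1754 bp upstream, scored 104. Repeat letters made up 54.2% of it, and 18.6% of its 32-base words occurred elsewhere. Peaks in introns 4, 5 and 10 scored 114, 81.6 and 96.9.

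Fabp5, the epidermal-type fatty acid binding protein, which adipocytes also make (chr3:10012548-10016607, plus strand), had the highest score of the set in a single peak. At chr3:10011833-10013738 the peak was 1906 bp wide with a score of 1408, and its midpoint lay 238 bp downstream of the only start. Among the 12199 bound genes this score stood at percentile 96.7. Fabp5 has processed copies in the genome, and 2.61% of the 32-base words of its peak occurred elsewhere. The part of such words in the score was not tested. Its relative Fabp4, the adipocyte fatty acid binding protein, named here after its values were seen, had a promoter peak with a score of 110 and a higher peak of 479 in its window.

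CpG content differed between bound and unbound promoters of the uptake genes, with exceptions. The 250 bases before a RefSeq start (GRCm38.p6) are printed for 4 genes whose starts the table holds. These are a bound and an unbound promoter of Acsl1, bound promoters of Vldlr and Lrp1, and an unbound promoter of Cd36. Capitals mark CG. They are read 5′ to 3′ on the strand of the gene, at chr8:46470787-46471036 and chr8:46490716-46490965 (plus), chr19:27216770-27217019 (plus), chr10:127621149-127621398 (minus) and chr5:17835897-17836146 (minus).
Acsl1, first start, peak score 1177: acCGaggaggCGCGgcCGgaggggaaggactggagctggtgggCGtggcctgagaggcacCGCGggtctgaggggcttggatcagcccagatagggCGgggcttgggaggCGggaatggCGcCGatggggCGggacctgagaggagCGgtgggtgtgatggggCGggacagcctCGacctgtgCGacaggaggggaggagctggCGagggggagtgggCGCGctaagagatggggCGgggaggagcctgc
Acsl1, downstream start, no peak: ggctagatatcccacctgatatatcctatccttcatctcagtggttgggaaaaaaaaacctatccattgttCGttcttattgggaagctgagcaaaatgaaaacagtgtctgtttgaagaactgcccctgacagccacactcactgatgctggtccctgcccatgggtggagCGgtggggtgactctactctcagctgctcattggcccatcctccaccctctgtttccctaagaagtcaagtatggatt
Vldlr, peak score 1004: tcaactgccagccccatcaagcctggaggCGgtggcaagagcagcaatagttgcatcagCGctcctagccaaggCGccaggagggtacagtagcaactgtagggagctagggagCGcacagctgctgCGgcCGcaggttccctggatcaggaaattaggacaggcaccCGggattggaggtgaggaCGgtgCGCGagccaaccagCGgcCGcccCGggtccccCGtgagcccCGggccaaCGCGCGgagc
Lrp1, peak score 766: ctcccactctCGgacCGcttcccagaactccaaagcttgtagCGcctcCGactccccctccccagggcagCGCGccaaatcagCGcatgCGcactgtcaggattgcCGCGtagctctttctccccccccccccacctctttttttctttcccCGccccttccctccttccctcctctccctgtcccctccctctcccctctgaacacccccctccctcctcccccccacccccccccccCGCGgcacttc
Cd36, no peak: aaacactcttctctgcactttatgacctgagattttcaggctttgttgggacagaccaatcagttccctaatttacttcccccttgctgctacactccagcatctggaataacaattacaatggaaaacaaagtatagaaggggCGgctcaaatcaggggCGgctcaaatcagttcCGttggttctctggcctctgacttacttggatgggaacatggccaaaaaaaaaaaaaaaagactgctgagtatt
The bound stretches of Acsl1, Vldlr and Lrp1 held 20, 18 and 13 CG. The unbound downstream start of Acsl1 had 2 and that of Cd36 had 3, against a median of 6 over all RefSeq promoters. The Cd36 stretch lies nearest to the starts at 17835696 and 17835717. Of the 6 protein-coding starts of Cd36, that at 17888801 had the highest CpG ratio (0.231). Each of the bound stretches lay wholly inside its peak. High CG number and binding did not always go together, since a further RefSeq start of Vldlr, at chr19:27216234-27216483, had 5 CG inside the same peak. Slc27a1 had 3 entries in the table. Those with 12 and 10 CG lay wholly inside its main peak, while that with 8 CG, at chr8:71568621-71568870, had 0 bases in a peak although it was above the median. By the 1 kb rule this is still a bound promoter. The annotated starts just downstream, at 71568882 and 71568927, had the nearest peak 116 and 71 bp away. No RefSeq promoter entry was available for Lpl, Gpihbp1, Angptl4 and Fabp5, so their CG were not counted in this way.

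For all genes CpG content was measured as the highest observed over expected ratio in 1 kb around the starts of a gene, and binding became more frequent with it. Gpihbp1 (0.209) and Cd36 (0.231), both without a promoter peak, had the lowest ratios of the set and fell in deciles 2 and 3 of all genes. In these deciles 8.05% and 15.7% of genes were bound. Lrp1 (0.436) stood in decile 4, where 33.8% were bound. Angptl4 (0.482), Lpl (0.524) and Fabp5 (0.587) were in decile 5, with 64.4% bound, and Slc27a1 (0.631) in decile 6, with 77.2%. Acsl1 (0.820) and Vldlr (0.828) were in decile 8, with 88.0% bound. Within their own deciles all 7 bound genes scored above the median, from percentile 64.0 for Angptl4 to 95.4 for Lrp1 and 98.9 for Fabp5. The median score of bound genes in decile 5 was 238, and in decile 4 it was 156. Single starts within a gene did not always follow their ratio. The unbound downstream start of Vldlr had a ratio of 0.432, above the 0.262 of the first 2 starts of Slc27a1, which had a peak within 1 kb.

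**Figure D2:**
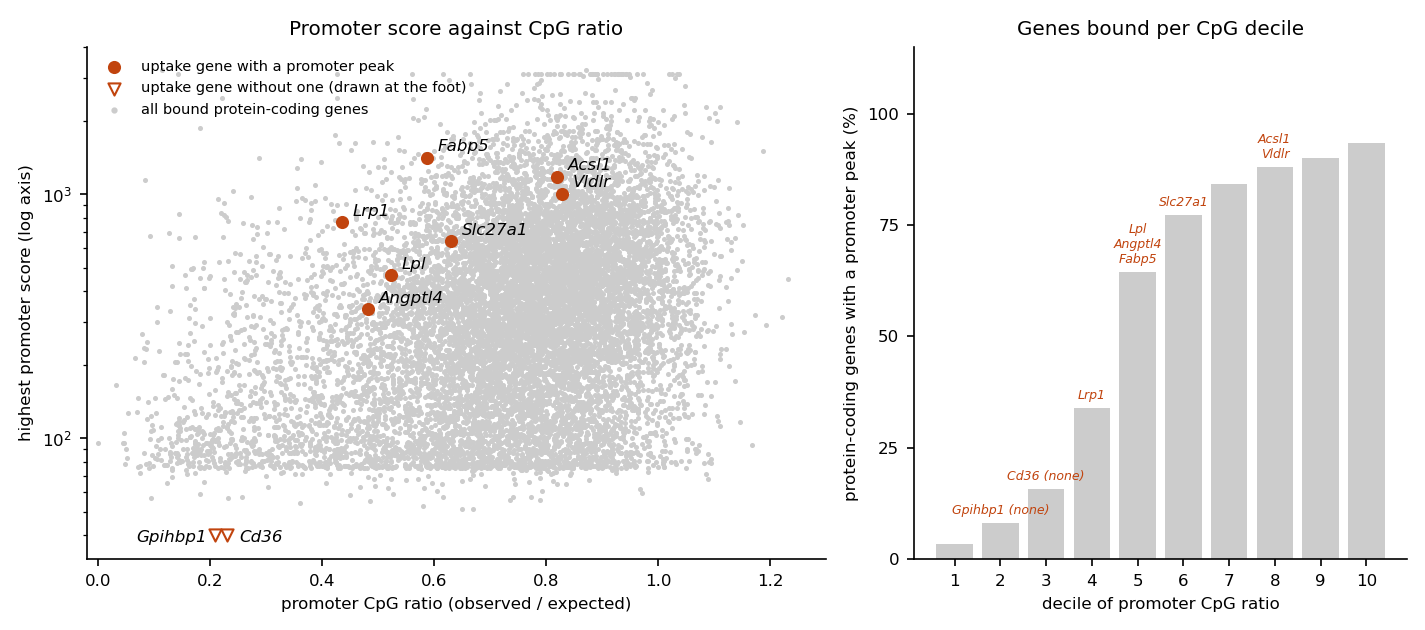
Left, highest promoter score (log axis) against the promoter CpG ratio for the uptake genes in orange and for all bound protein-coding genes in grey, with the unbound Gpihbp1 and Cd36 drawn as open triangles at the foot. Right, the percentage of protein-coding genes with a promoter peak in each decile of CpG ratio, from 3.48% to 93.4%, with the uptake genes written above their decile. Fabp5 and Lrp1 lie high for their CpG ratio.

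Score and width go together across the list, and part of the high scores of the uptake genes went with wide peaks. Against bound genes whose best promoter peak had a like width, Fabp5 stood at percentile 90.8, Lrp1 at 86.0, Acsl1 at 67.6 and Lpl at 55.8. Angptl4 was at the median, while Vldlr (30.8) and Slc27a1 (27.7) were below it. Thus 4 of the 7 scored above the median for their width. The 33 peaks outside the promoters of the uptake genes had a median score of 114 and a median width of 644 bp. All peaks of the list outside any protein-coding promoter had 102 and 602 bp. The comparison is not fully like for like, since the 33 include Slc27a1 window peaks within 1 kb of a Tmem221 or Nxnl1 start. Of these 33, 17 were above the median score of the whole list.

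**Figure D3:**
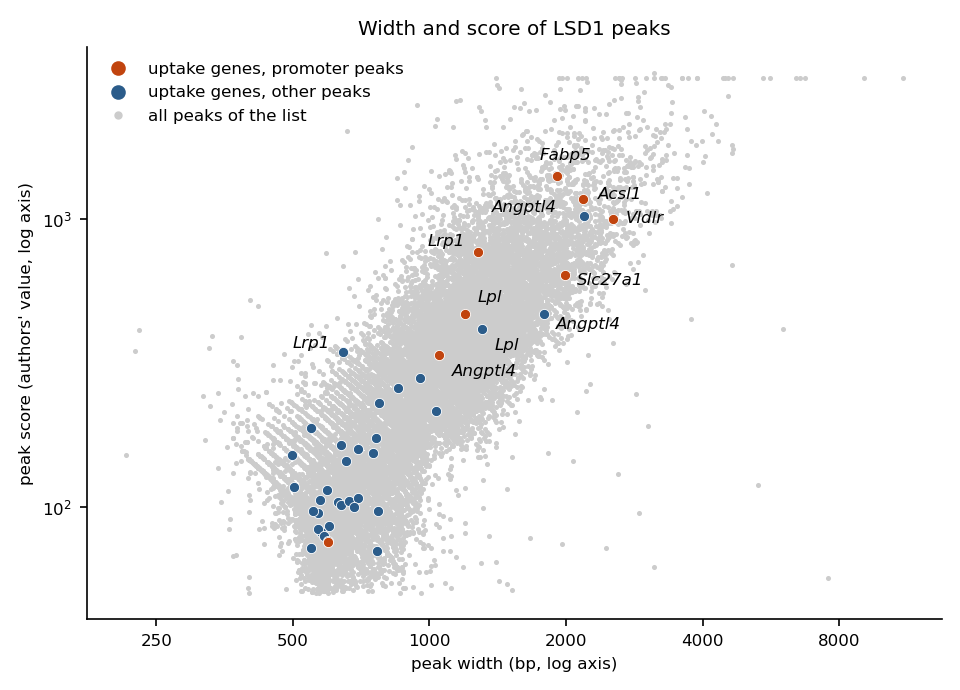
Peak width in bp against the authors' peak score, both on log axes, for the 8 promoter peaks (orange) and 33 other peaks (blue) of the uptake genes and for all 59175 peaks (grey). Promoter peaks of Fabp5, Acsl1 and Vldlr and the upstream Angptl4 peak lie above 1000, and the unlabelled promoter peak at 75.5 belongs to Slc27a1.

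Peaks at the 3′ end, which the choice of genes did not use, were found at 3 of the 9 genes. Lpl, Gpihbp1 and Angptl4 each had a peak over the last 1 kb of the gene record that was not also a promoter peak. That is 33.3% of the 9 genes, against 5.71% of all protein-coding genes. This feature was looked for after the peaks had been seen, and the share over all genes was not matched for gene length or number of peaks. Gpihbp1 is only 2854 bp long, and with promoters of 2.5 kb its peak counts as a promoter peak. The scores were 415, 144 and 101.

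Of 10 motifs searched, 5 stood at the centre of at least 1 bound promoter, and nothing particular to the 7 genes is read from such small counts. Exact matches on both strands were counted in the 300 bases around each midpoint, since the list gives no summits. A gene was counted if any of its promoter peaks had a match (Slc27a1 has 2 such peaks), whereas the share over the list is per peak. The GC box GGGCGG was present at 4 of the 7 bound promoters (Angptl4, Lrp1, Slc27a1 and Vldlr), against 49.4% of all promoter peaks, and CCAAT of NF-Y at 3, against 29.3%. GGAAGT of ETS factors was found at Fabp5 and, in its weaker promoter peak alone, at Slc27a1 (20.5% of all), and CACGTG of USF at Fabp5 and TATAAA at Angptl4 (7.04% and 5.89%). AGGTCA, TTGCNNAA of C/EBP, TGANTCA of AP-1 and TGACGTCA of CREB were found at 0 of 7 promoter centres, where 12.6%, 8.08%, 5.62% and 1.68% of all promoter peaks held them. DR1, the element of PPAR and RXR, was searched as a pair of AGGTCA hexamers 1 base apart with up to 1 mismatch, and can contain the single hexamer. It was found at 0 of 7 promoter centres and 0 of 33 other centres, against 0.367% of all promoter peaks and 0.706% of other peaks. Outside the promoters of the uptake genes the shares lay on both sides of the background, which leaves out peaks at any protein-coding promoter. The 33 other peaks include Slc27a1 window peaks within 1 kb of a Tmem221 or Nxnl1 start. Of these, the peak at chr8:71559137-71559736 held GGGCGG and GGAAGT. Among the 33 other peaks CCAAT was present at 11 (33.3%, against 33.1% of all peaks outside promoters), GGAAGT at 9 (27.3%, against 19.1%) and TGANTCA at 7 (21.2%, against 15.4%). AGGTCA and GGGCGG were each present at 5 (15.2%), against 19.6% and 7.26% of all such peaks. TATAAA was present at 4 (12.1%, against 14.2%), TTGCNNAA and CACGTG at 2 each (6.06%, against 13.9% and 4.10%) and TGACGTCA at 0 (against 0.288%). These peaks share genes, 16 of the 33 being in Lrp1. The 7 peaks with TGANTCA were the upstream peaks of Angptl4 and Acsl1, 4 intron peaks of Lrp1 and 1 of Slc27a1.

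Further genes of the uptake pathway, listed by role, were bound about as often as the 9 genes and had a lower median score. Of 66 such genes 50 had a promoter peak (75.8%, against 55.8% of all protein-coding genes), with a median highest score of 302. The 9 uptake genes had a median of 766 over their 7 bound members, and all bound protein-coding genes a median of 315. Genes that process and hold the lipase were bound in 10 of 11 cases. Sel1l, an adaptor of the machinery that folds and clears secretory proteins (1028), and the heparan sulfate proteoglycan Sdc4 (872) scored highest, and hepatic lipase Lipc had no promoter peak. Lipase regulators and apolipoproteins were bound in 2 of 8. All 8 stood in CpG deciles 1 to 4, where 3.48% to 33.8% of all genes were bound, while the 15 receptor genes described next stood in deciles 5 to 10, with 64.4% to 93.4%. Scores were low at Angptl8 (87.0), the insulin-induced partner of the ANGPTL inhibitors, and at Apoc1 (79.2).

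Of 15 lipoprotein receptor genes 13 were bound, led by Lrp8, the apolipoprotein E receptor 2 (1940), and Mylip, a ubiquitin ligase that degrades the LDL receptor (879). Sorl1, a sorting receptor, had none. Membrane transport genes were bound in 9 of 11, with Zdhhc5, a palmitoyltransferase that acts on CD36 (712), and Cavin1, a caveola coat protein (381), highest and Slc27a5 unbound. All 7 further acyl-CoA synthetase genes were bound, Acsl3 (1098) and Acss2 (547) most highly, and Acsl1 (1177) scored above each of them. The lowest of the 7 scored 70.3, under the list median of 111. Fatty acid and acyl-CoA binding protein genes were bound in 4 of 9. Dbi, the acyl-CoA binding protein (1394), and Acbd3 (370) scored highest, and the liver form Fabp1 had none. The 5 genes of endothelial fatty acid passage were all bound, led by Nrp1 (2288) and Flt1 (481), receptors for VEGF-B. The lowest of the 5 scored 96.0, also under the list median. These counts by role stand against promoter peaks at 55.8% of all protein-coding genes.

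**Figure D4:**
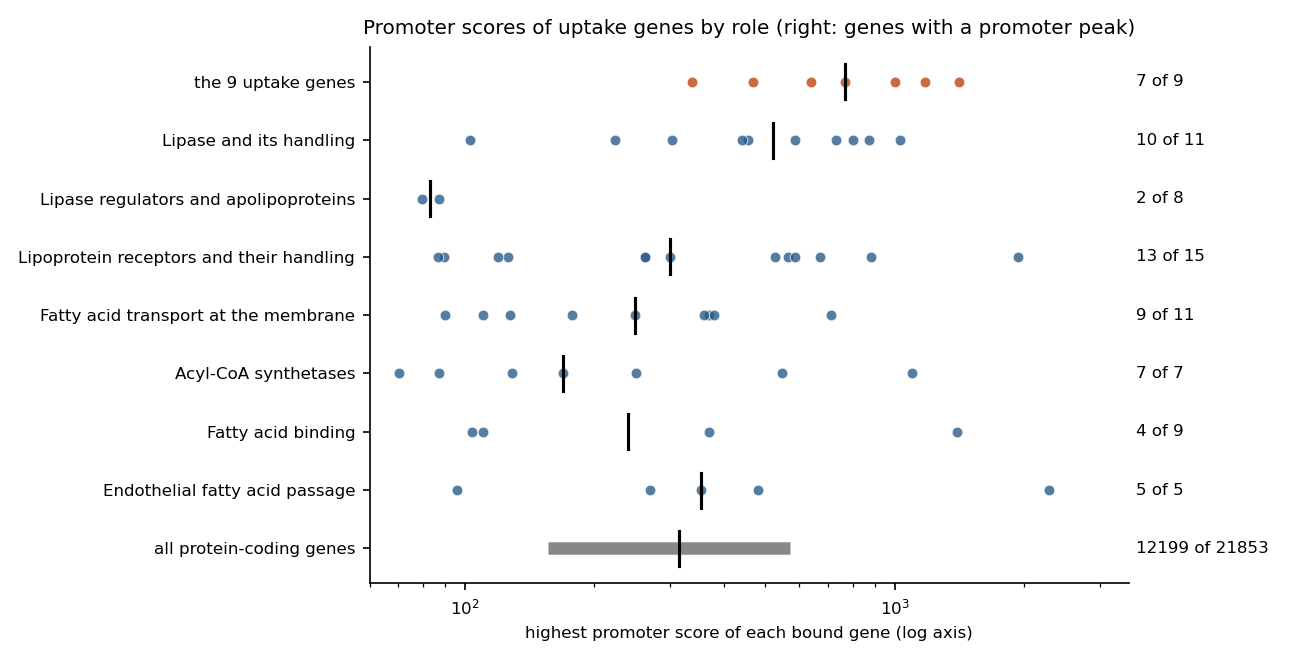
Highest promoter score of each bound gene (log axis) for the 9 uptake genes in orange and for 66 further uptake genes in blue, in 7 roles, with all protein-coding genes in the bottom row. Black ticks are medians, the grey bar spans the quartiles of all bound genes, and the counts at the right give genes with a promoter peak of all genes in the row. The lowest row of roles is that of lipase regulators and apolipoproteins, with 2 of 8 bound and scores under 100.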

How the data were processed

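Per the labels' protocols, reads were mapped to mm10 with Bowtie2. The submitters' processing notes list MACS 1.41. The sources used here do not give the peak threshold, the read filters or the use made of the input library. Each peak carries 1 deposited score, the authors' value. No input values were analysed here. Positions are printed with the first base counted as 1, on GRCm38.p6 (the chromosomes of mm10), and 0 peaks ran past a chromosome end. Overlap of at least 1 bp with the region within 1 kb of any protein-coding start counted as promoter binding. Percentiles, CpG ratios, motif matches and 32-base word counts were computed with Python 3.11.15, pandas 2.3.3, numpy 2.4.6 and pysam 0.24.0, and the motif search was checked on made-up strings. All 9 genes are named. Promoter peaks are given in full, other peaks in full up to 6 per gene and otherwise as the 3 highest and a range. Of each further role, the 2 highest-scoring genes and the first unbound one are named, except 1 gene that is not reported here. Genes and lists were chosen with earlier results of these data known. Alternatives varied promoter width, overlap, starts, upstream distance, score minimum and motif window.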

Additional observations from a re-analysis of the deposited data

How the results depend on the processing

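No paired analysis was possible because no result comes from a test. The number of promoter-bound uptake genes was 7 under every promoter definition and score minimum tried except promoters of 2.5 kb (8, with Gpihbp1) and the top 10% of peaks (6, without Angptl4). Over all genes these settings gave 59.1% and 22.8%. The number with a peak in the window was between 7 and 9, and the share over all genes was not computed for the alternative window settings. The count of 41 peaks became 65 with 50 kb upstream, 24 with peaks at or above the median score and 9 with the top 10%. With 50 kb upstream Cd36 had 1 peak. The median promoter score of 766 became 885 with promoters of 2.5 kb, where the upstream peak raised Angptl4 to 1027. The 50 further uptake genes became 19 with the top 10% of peaks. Motif counts depended on the window: with whole peaks in place of 300 bases 7 of 10 moved by over 1.5 times, by construction of the longer window, and with 200 bases 2 did. With 1 library and no counts, the data cannot show which peaks would recur in another culture.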
